A study of Canis lupus familiaris with 17 samples.

Results

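The cells described here were B cells in dog blood whose transcripts included at least 2 of the 4 genes CACNB2, RASGRF2, AOX2 and ADAM32. A barcode was kept if it held between 200 and 4500 genes and between 500 and 20000 unique molecular identifiers (UMIs, the count of distinct captured transcripts), with under 10% of UMIs from mitochondrial genes. It passed the B cell gate if it held at least 1 UMI of MS4A1 or PAX5 and 0 UMIs of CD3E, and it was a member if at least 2 of the 4 genes had at least 1 UMI. The rule found 895 members among 6994 B-gated barcodes and 84345 barcodes kept. The remaining 6099 B-gated barcodes, with 0 or 1 of the 4 genes, are called other B cells.

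Peripheral blood mononuclear cells were isolated from blood by Ficoll gradient and captured as single cells with 10x 3′ v3.1 chemistry, 1 library per dog. The donors were 7 clinically healthy, client-owned dogs (H1 to H7) and 10 client-owned dogs with osteosarcoma (OS1 to OS10), an aggressive bone tumor. The dogs with osteosarcoma had a primary tumor and had received no treatment. All dogs carried the genotype label Wt. The healthy dogs were middle-aged, whereas the dogs with osteosarcoma ranged from middle-aged to old, and the part of this age difference, of sex or of breed in any result was not tested. The libraries held 7740230 to 56510134 UMIs in total and 1239 to 7070 barcodes kept, with OS3 the smallest library. Of 83418 distinct barcode sequences, 922 occurred in more than 1 library (1.11%), and 28 of the 895 members had a sequence that was also kept in another library, while no sequence was shared among members.

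B cells recognize antigen through a surface immunoglobulin. Binding sets off a kinase cascade, calcium release and Ras signaling, and the activated cell displays surface proteins such as CD69, CD83 and CD86 and may go on to divide or to become a plasma cell that secretes antibody. PAX5 is the transcription factor that maintains B cell identity, and MS4A1 encodes CD20, a surface protein of mature B cells. CACNB2 encodes a beta subunit of voltage-gated calcium channels, RASGRF2 an exchange factor that loads Ras with GTP, AOX2 an aldehyde oxidase and ADAM32 a member of the ADAM family of membrane proteins.

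The cells carried the working label activated B cells, but only 1 of 27 tested genes of a B cell activation list, IL2RA, was called higher in members. CD69 (log2 fold change -0.15, edgeR adjusted p = 0.607), CD83 (-0.14, edgeR adjusted p = 0.671) and CD86 (-0.72, edgeR adjusted p = 0.0875) did not pass the test against other B cells of the same dogs, and these 3 genes were chosen after their values were seen. Of the 27 list genes, IL2RA was higher and 3 were lower (CD80, FAS and IRF4), where 0.302% of all genes tested were called higher and 2.32% lower. IL2RA was called under every choice of comparison cells described below. Of the lower genes only CD80 was still called with plasma cell barcodes left out, and none against cells matched on long genes. For the B cell part of the label, no gene of the B cell identity list was called lower in members. The comparison cells passed the same gate, so this cannot show whether members are B cells. PAX5 was found in a median of 90.9% of members per dog, a share that the rule, which requires MS4A1 or PAX5, largely sets. The cells are therefore called CACNB2/ADAM32 B cells, after the commonest pair of genes that selected them.

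The 4 genes chose the members, so their levels are a description. Within the gate, 3669 barcodes (52.5%) held none of the 4 genes, 2430 (34.7%) held 1, 740 (10.6%) held 2, 129 (1.84%) held 3 and 26 (0.372%) held all 4. Cells just inside the rule, with 2 genes, had a median of 4648 UMIs per dog at the middle dog, and cells just outside it, with 1 gene, had 4426. Cells with none of the genes had 4058, and those with all 4 had 5958, and these medians are not over the same dogs. Members had more UMIs than other B cells in 14 of 17 dogs. Members were found in all 17 dogs, whereas cells with all 4 genes came from 6 dogs.

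CACNB2 together with ADAM32, and no other of the genes, selected 404 members (45.1%) in 17 dogs. RASGRF2 with ADAM32 selected 108 (12.1%), CACNB2 with AOX2 selected 90 (10.1%) and CACNB2 with RASGRF2 selected 73 (8.16%). CACNB2 was found in 50% to 93.5% of members per dog with a median of 80.2%, compared with a median of 22.0% of other B cells. ADAM32 was found in 60.4% to 90.1% (median 78.3%), compared with 10.3% of other B cells. The remaining genes were rarer, with RASGRF2 in 0% to 62.3% of members (median 30.3%, other B cells 4.49%) and AOX2 in 12.1% to 44.4% (median 30.3%, other B cells 2.04%).

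**Figure D1:**
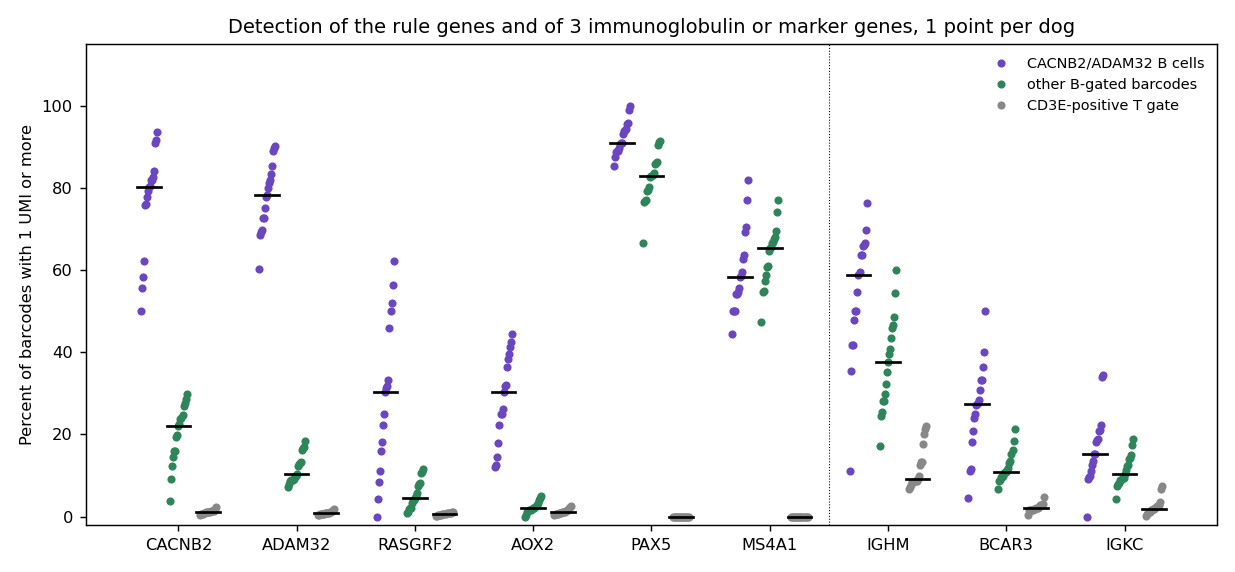
Percent of barcodes with at least 1 UMI of each gene, with 1 point per dog and lines at the medians. The classes are CACNB2/ADAM32 B cells, other B-gated cells, and CD3E-positive cells chosen to hold no UMI of MS4A1 or PAX5. The genes are those of the rule except CD3E and those of the study's marker list for these cells except TNFRSF13C. CACNB2 and ADAM32 stand apart by the choice of cells, while MS4A1 overlaps, with medians of 58.3% and 65.4%.

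Free RNA in the droplets gives a gene a low share in cells that do not express it. The T cell gate took barcodes with a UMI of CD3E and none of MS4A1 or PAX5. Barcodes with free RNA of those B cell genes were thus left out, and the gate's shares may understate what free RNA gives. In these cells CACNB2 was found in a median of 1.18% per dog, ADAM32 in 0.870%, AOX2 in 1.15% and RASGRF2 in 0.703%. Their median depth was 5381 UMIs against 4682 in members. Of 45303 barcodes in the T cell gate, 34 held at least 2 of the 4 genes, with 0% to 0.225% per dog. The median share of other B cells with each of the 4 genes was above that in T cells. For AOX2, at a median of 2.04% of other B cells, the share was higher than in T cells in 12 of 17 dogs and lower in H2, OS1, OS3, OS5 and OS6.

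To describe how often the selection repeats within a cell, the UMIs of every barcode were split at random into 2 sets of about 50% each, the rule was applied to the first set, and the 4 genes were read in the other. In the 13 dogs with at least 10 members by the first set, 17.6% to 50.9% of these members (median 41.7%) again held at least 2 of the 4 genes. Among other B cells the share was 1.88% to 10.3% (median 4.37%). The 4 dogs with fewer such members are left out of these ranges, and in OS4 and OS10 the share in members was 0%. These are the genes the rule used, read again in the same cells, so the shares describe the selection and are no test of it. Depth acts on both sets, and its part was not tested.

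The remaining genes of the study's marker list were chosen by the study from markers defined in the healthy dogs of this series. They are not independent evidence. BCAR3, an adaptor protein, was found in a median of 27.5% of members and 10.8% of other B cells. IGHM, the heavy chain of IgM, was found in 11.1% to 76.2% of members (median 58.7%), and in a median of 37.7% of other B cells and 9.08% of T cells. IGKC, the kappa light chain, was found in 0% to 34.4% of members (median 15.2%) and a median of 10.3% of other B cells. MS4A1, which is a gene of the gate and not of that list, was found in a median of 58.3% of members and 65.4% of other B cells. As a share of all UMIs summed per dog and class, MS4A1 was higher in members in 7 of 17 dogs.

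The first comparison asked whether dogs with osteosarcoma had a different share of these cells in blood. CACNB2/ADAM32 B cells were 0.679% to 4.05% of barcodes kept in healthy dogs (median 1.21%, mean 1.66 ± 1.27%, SD, n = 7) and 0.164% to 1.06% in dogs with osteosarcoma (median 0.683%, mean 0.607 ± 0.351%, SD, n = 10). H1 and H2 stood highest, at 4.05% and 2.75%, and OS5, OS4, OS10 and OS3 lowest. If the study's dog numbers are these replicate numbers, OS5, OS4 and OS10 were the oldest dogs of the series. OS3 was then among the younger dogs with osteosarcoma. The part of age in the shares was not tested. The ranges overlapped, but all 10 dogs with osteosarcoma lay below the median of healthy dogs. In an exact Wilcoxon test of the ranks (two-sided) the difference gave p = 0.0185, or 0.0370 after adjustment for the pair of shares tested, where the smallest possible p is 0.000103. A share falls when other cells become more frequent as well as when these cells become fewer, and the counts cannot tell these apart. The 4 genes of the rule are in the study's list for these cells, taken from markers defined in the healthy dogs. The part of that choice in the difference was not tested. On these same dogs the study also reported fewer activated B cells with osteosarcoma, and could not separate age from cancer.

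Within the B cell gate the difference was not detected. The cells were 7.61% to 26.5% of B-gated barcodes in healthy dogs (median 10.2%, mean 14.3 ± 7.87%, SD, n = 7) and 2.07% to 20% in dogs with osteosarcoma (median 10.5%, mean 10.5 ± 5.60%, SD, n = 10, exact two-sided rank-sum p = 0.475). The B cell gate as a whole held 11.0 ± 3.61% of barcodes kept in healthy dogs and 6.31 ± 2.97% in dogs with osteosarcoma (SD, exact two-sided rank-sum p = 0.0431), so the smaller share of members moved with a smaller share of all B-gated cells. The median UMIs per member was 4610 ± 841 in healthy dogs and 4477 ± 826 in dogs with osteosarcoma (SD, exact two-sided rank-sum p = 0.962).

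**Figure D2:**
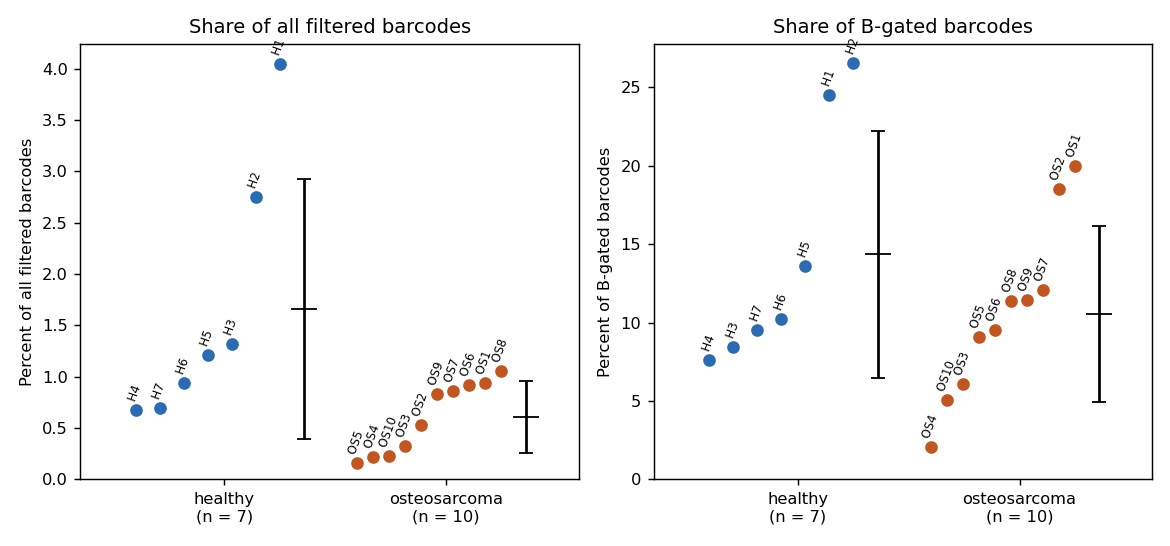
CACNB2/ADAM32 B cells per dog as a percent of all barcodes kept (left) and of B-gated barcodes (right); points are dogs, and bars are the mean and SD of 7 healthy dogs and 10 dogs with osteosarcoma. On the left all dogs with osteosarcoma lie below the healthy median of 1.21%, and on the right the groups overlap across most of their range.

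With barcodes thinned to 2000 UMIs each, which left out 4600 shallower ones in the healthy group and 5940 in the osteosarcoma group, the share of the remaining barcodes had a median of 0.481% in healthy dogs and 0.236% in dogs with osteosarcoma (exact two-sided rank-sum p = 0.0185). At an unadjusted p of 0.05 the call was lost when the rule left out RASGRF2 (exact p = 0.0553) or required MS4A1 (exact p = 0.0702), with the same direction in each. These p-values are not adjusted for the pair of shares, and others lay close to 0.05, such as an exact rank-sum p = 0.0431 without AOX2.

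The second comparison asked which other genes distinguished these cells from other B cells of the same dogs. Against all other B cells, CACNB2/ADAM32 B cells had more F8, SYT1, IL2RA, ADAM9 and CBLB, and less TOX, PRDM1 and other genes of plasma cells. The calls of ADAM9 and CBLB were lost against cells matched on long genes, and that of CBLB also with plasma cell barcodes left out. Most calls of plasma cell genes, though not that of PRDM1, were lost under each of these choices. UMIs were summed per dog and class in the 13 dogs with at least 25 members (7 healthy dogs and OS1, OS2, OS6, OS7, OS8 and OS9) and fitted with edgeR with the dog as a block. Genes were called at an adjusted p under 0.01 and an absolute log2 fold change over 0.58, the threshold of the study. Of 12907 genes tested, 339 were called (2.63%), 39 of them higher in members (0.302%) and 300 lower (2.32%), and the 7 genes of the rule were left out. At an unadjusted p under 0.05 there were 2614 genes (20.3%), and 31 genes were higher in members in every dog (0.24%) and 276 lower in every dog (2.14%). The median log2 fold change of all genes was -0.09. The values below are counts per 1000000 UMIs of the summed cells (CPM), given as the lowest, median and highest of the 13 dogs.

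F8, which encodes coagulation factor VIII, was at 12.7, 105 and 259 CPM in members and 4.30, 24.5 and 52.1 CPM in other B cells. It was higher in members in all 13 dogs although the ranges overlapped, with the lowest value in OS8 and the highest in H7. The log2 fold change was 1.76 ± 0.16 (SE, edgeR adjusted p = 5.44e-10). SYT1, a synaptotagmin that senses calcium at membranes, was at 164, 300 and 524 CPM in members and 67.1, 141 and 182 CPM in other B cells, and rose in all 13 dogs (log2 fold change 0.95 ± 0.11, SE, edgeR adjusted p = 6.27e-08). Both genes belong to the study's list for immature B cells, which was used here without PAX5 and with RAG1, RAG2, DNTT, MME, CD38 and SOX4 added. Of 12 tested genes of the extended list 5 rose, namely F8, SYT1, TMTC2, TDRP and ERC2, all from the study's list, and CD38, an added gene, fell, with a median log2 fold change of 0.50 against -0.09 over all genes. TDRP and ERC2 were not called under every choice of comparison cells. The mean difference between members and other B cells in log2(CPM + 1) was 0.03 in healthy dogs and 1.14 in dogs with osteosarcoma for TMTC2, which was higher in members in 7 of 13 dogs, and -0.07 and 1.03 for ERC2. Neither difference between groups passed the interaction test (edgeR adjusted p = 0.441 for each). The study chose its genes on the healthy dogs of this series, so they are not independent evidence of the list's direction. F8, SYT1 and ERC2 are not known for a role in B cell maturation.

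IL2RA encodes CD25, the alpha chain of the interleukin-2 receptor. It was at 18.8, 71.7 and 112.3 CPM in members and 11.5, 26.3 and 73.8 CPM in other B cells, and was higher in members in all 13 dogs, with OS2 the lowest (log2 fold change 1.01 ± 0.17, SE, edgeR adjusted p = 6.56e-05). It was the only gene of the activation list that rose. CD80, a ligand of T cell costimulation (log2 fold change -1.27 ± 0.24, SE, edgeR adjusted p = 0.000284), FAS, a death receptor (-0.94 ± 0.20, edgeR adjusted p = 0.00133), and IRF4, a transcription factor of activated B cells and plasma cells (-1.26 ± 0.18, edgeR adjusted p = 8.86e-06), were lower. The list's median was -0.51, and 2 of its 27 genes had a positive log2 fold change. With plasma cell barcodes left out, as described below, CD80 was the only one of the lower genes still called. NR4A1 and MYC, early genes of antigen receptor signaling, were at -0.25 and -0.01 and did not pass the test.

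ADAM9, a metalloprotease of the same family as ADAM32 and a gene of the study's naive B cell list, was at 579, 810 and 1031 CPM in members and 360, 426 and 790 CPM in other B cells. It rose in all 13 dogs (log2 fold change 0.71 ± 0.07, SE, edgeR adjusted p = 4.98e-09), and was at 0.52, below the fold threshold, against cells matched on long genes. Among 10 tested ADAM proteases and aldehyde oxidases, ADAM9 and ADAM22 (0.86 ± 0.16, edgeR adjusted p = 0.00038) rose, and the list's median was -0.03. Of 15 tested calcium channel subunits CACNB4 rose (0.75 ± 0.17, edgeR adjusted p = 0.0036), and of 18 tested Ras exchange factors and inhibitors 1 rose, with list medians of 0.12 and -0.09. Over all genes tested 0.302% were called higher.

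CBLB, a ubiquitin ligase that dampens antigen receptor signaling, was at 186, 379 and 555 CPM in members and 99.0, 215 and 358 CPM in other B cells. It rose in all 13 dogs (log2 fold change 0.67 ± 0.07, SE, edgeR adjusted p = 4e-09). It was the only one of 22 B cell receptor signaling genes to be called. SYK and LYN, kinases at the start of the cascade, were at 0.32 and 0.26, below the fold threshold, and 18 of the 22 genes had a positive log2 fold change, with a median of 0.12. CBLB was at 0.52 without plasma cell barcodes and at 0.44 against cells matched on long genes, below the fold threshold in both. UBASH3B, a phosphatase that also dampens receptor signaling, rose by 0.70 ± 0.16 (SE, edgeR adjusted p = 0.00273), and PIP5K1B, a lipid kinase, by 0.67 ± 0.11 (SE, edgeR adjusted p = 2.64e-05).

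BCAR3, of the study's marker list, was at 8.44, 75.9 and 153 CPM in members and 16.7, 42.4 and 61.6 CPM in other B cells and was higher in 11 of 13 dogs (log2 fold change 0.85 ± 0.14, SE, edgeR adjusted p = 6.74e-05). FCRL5, an Fc receptor-like protein of the atypical B cell list, rose by 0.83 ± 0.18 (SE, edgeR adjusted p = 0.00159). PHACTR1, a regulator of phosphatase and actin, was at 0, 69.9 and 372 CPM in members and 0.96, 13.1 and 94.2 CPM in other B cells (log2 fold change 1.58 ± 0.18, SE, edgeR adjusted p = 1.19e-07) and was lower in members in 2 dogs. ANKRD55 was at 15.2, 44.7 and 202 CPM in members and 11.5, 23.7 and 80.7 CPM in other B cells, and was higher in 11 of 13 dogs (log2 fold change 1.10 ± 0.19, SE, edgeR adjusted p = 0.000128). MREG, melanoregulin, was higher in all 13 dogs (5.59, 31.1 and 59.4 CPM in members and 1.75, 9.38 and 25.3 CPM in other B cells, log2 fold change 1.41 ± 0.23, SE, edgeR adjusted p = 3.91e-05), and was chosen after its values were seen.

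**Figure D3:**
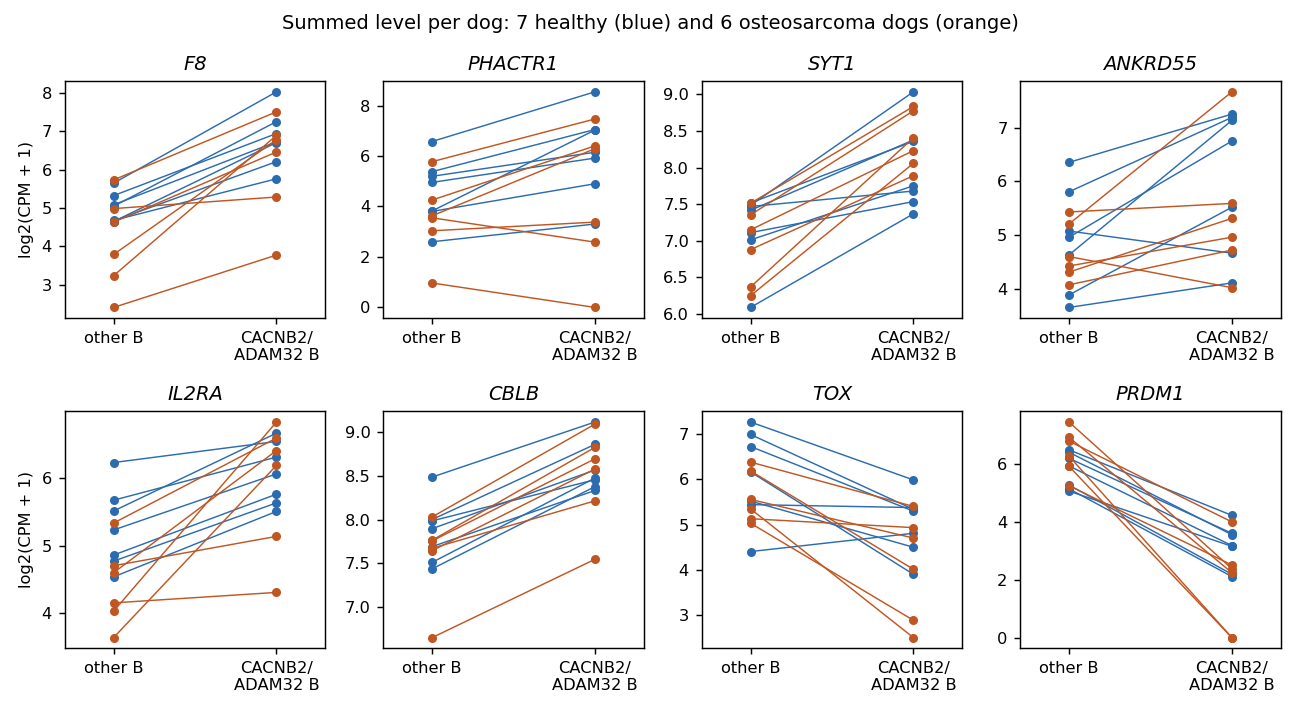
Level of 8 genes as log2(CPM + 1) in CACNB2/ADAM32 B cells and in other B-gated cells of the same dog, with 1 line per dog for 7 healthy dogs (blue) and 6 dogs with osteosarcoma (orange). F8, SYT1, IL2RA and CBLB are higher in the members in all 13 dogs, PRDM1 is lower in all 13 and TOX is lower in 12.

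Genes of plasma cells were lower in members, and 14 of the 300 genes called lower belonged to the plasma cell list. PRDM1, which encodes the plasma cell transcription factor Blimp-1, was at 0, 4.71 and 17.8 CPM in members and 32.6, 72.7 and 175 CPM in other B cells, with no overlap between the classes (log2 fold change -3.36 ± 0.22, SE, edgeR adjusted p = 2.26e-13). JCHAIN, which joins secreted IgM and IgA, was at 13.3, 25.7 and 133 CPM in members and 77.9, 391 and 865 CPM in other B cells (-3.19 ± 0.25, edgeR adjusted p = 2.59e-11). MZB1, an endoplasmic reticulum protein of antibody-secreting cells, fell by 4.25 ± 0.27 (edgeR adjusted p = 7.17e-14) on the log2 scale. Against cells matched on long genes, MZB1 turned to 0.69. Of 17 tested plasma cell genes 14 fell and none rose, with a list median of -1.70. The gate itself admits plasma cells, since 299 of 6099 other B cells and 3 of 895 members held at least 2 JCHAIN UMIs and 1 MZB1 UMI. With these barcodes left out, an alternative chosen after seeing the data, 1 plasma cell gene was called and the calls fell from 339 to 80, with 24 higher and 56 lower.

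Of 13 tested cycling genes 3 were called lower in members and 10 were not called, with a list median of -1.30. MKI67 was among the lower ones (log2 fold change -3.87 ± 0.40, SE). No cycling gene was called with the plasma cell barcodes left out. IRF4 went from -1.26 to -0.01 without those barcodes. IGHM was lower in members in 9 of 13 dogs (-0.77 ± 0.25, SE, edgeR adjusted p = 0.0438), and its direction turned to 0.33 when they were left out. IGKC (-0.98 ± 0.38, SE, edgeR adjusted p = 0.112) likewise turned to 0.42, and TNFRSF13C, the receptor of the B cell survival factor BAFF, was found in 79.4% of members and 79.0% of other B cells on average over dogs.

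TOX, an HMG-box transcription factor of the atypical B cell list, was lower whether or not plasma cells were counted. It was at 4.71, 27.0 and 62.2 CPM in members and 20.2, 45.9 and 152 CPM in other B cells, and was lower in members in 12 of 13 dogs, with overlapping ranges (log2 fold change -1.38 ± 0.17, SE, edgeR adjusted p = 2.59e-07). ITGB1, a beta integrin (-1.18 ± 0.12, SE, edgeR adjusted p = 5.03e-09), TNFRSF13B, the receptor TACI (-1.19 ± 0.20, edgeR adjusted p = 9.3e-05), and RUNX2 (-0.80 ± 0.14, edgeR adjusted p = 0.000194) were also lower. Without plasma cell barcodes ITGB1 was still called (-0.68), while TNFRSF13B (-0.56) and RUNX2 (-0.34) were not. Of 15 atypical B cell genes tested 1 rose and 2 fell (median -0.04), and of 9 memory and class-switched genes none rose and 2 fell (median -0.46).

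Of the remaining lists, none of 16 B cell identity genes (median 0.06), 10 germinal center genes (median 0.07) or 10 antigen presentation genes (median -0.03) was called, 1 of 13 naive genes rose (ADAM9, median 0.10), and 1 of 18 interferon response genes fell (ISG20, -2.79 ± 0.29, SE, edgeR adjusted p = 1.32e-08, median -0.23). Of 17 homing genes 3 fell and of 24 cytokine and survival receptors 2 fell, with medians of -0.23 and -0.24. These lists share genes with the plasma cell list, CCR10 with the homing list and TNFRSF17 with the receptor list. The activation list likewise shares IRF4 with it, so the counts of these lists are not separate results. BACH2, a transcription factor that holds back the plasma cell program, was at 0.53 and EBF1, which acts with PAX5, at 0.36, both below the fold threshold.

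**Figure D4:**
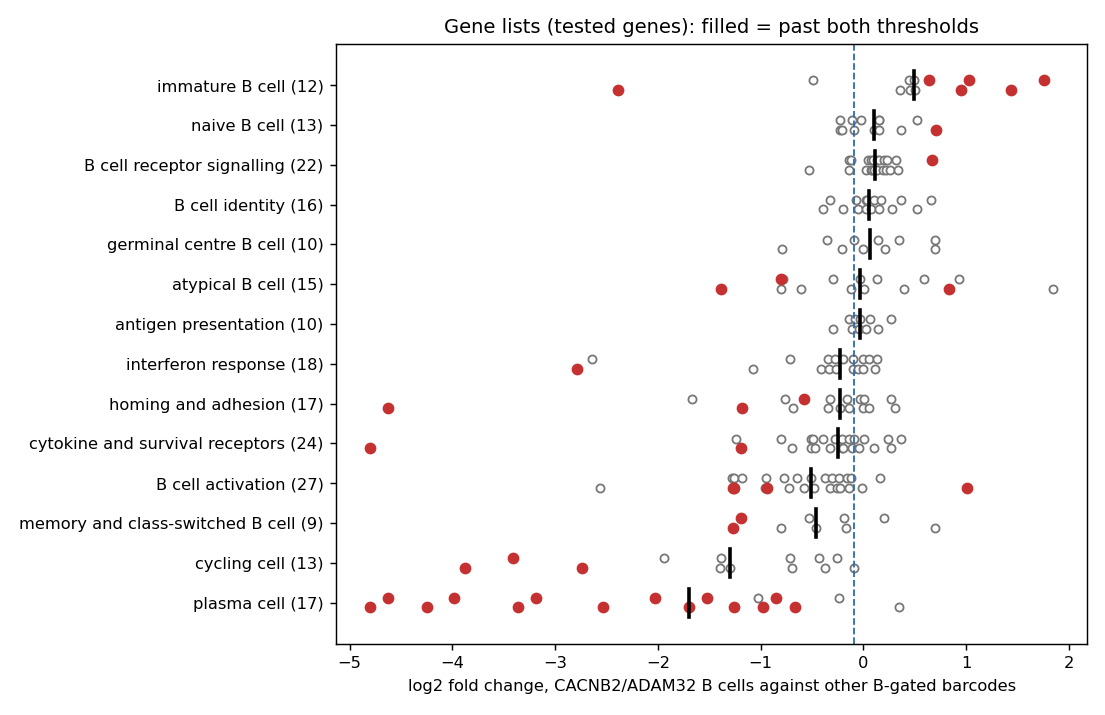
Log2 fold changes of list genes, CACNB2/ADAM32 B cells against other B-gated cells of the same dogs, with 1 point per tested gene, filled where it was called, bars at the list medians and a dashed line at the median of all genes. The plasma cell list has the lowest median, at -1.70, and the immature list the highest, at 0.50.

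Markers of other cells were measured beside these results. The summed level of 11 monocyte and neutrophil genes was 476 to 6932 CPM in members (median 2410) and 339 to 8785 CPM in other B cells (median 2297) over 17 dogs, and none of these genes was called. The T cell list summed to 154 to 378 CPM in members (median 254) and 197 to 379 CPM in other B cells (median 252), and KLRD1 of the NK cell list was at 0 UMIs in members. None of 8 NK cell, 12 dendritic cell or 7 eosinophil and basophil genes was called, while 1 of 12 T cell genes and 4 of 6 platelet and erythrocyte genes were lower. A doublet caller marked 34 of 895 members (3.80%) and 189 of 6099 other B cells (3.1%), compared with 4.67% of all barcodes. With marked barcodes removed the calls rose to 557 of 12766 genes tested, 46 higher and 511 lower. Among the lower ones were then 8 monocyte and neutrophil genes and 10 activation genes, from lists with 11 and 27 genes tested in the main comparison.

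Measures of the libraries' RNA also moved with the classes. The median share of mitochondrial UMIs was lower in members than in other B cells in 15 of 17 dogs, 5 of 7 healthy dogs and 10 of 10 dogs with osteosarcoma, at 4.41% against 4.89% on average over dogs, and its part in the results was not tested. The share of a cell's UMIs that came from genes of at least 100 kb, with the rule genes excluded, was higher in members than in other B cells in 16 of 17 dogs, with medians of 24.98% and 22.52% on average over dogs. The 4 genes of the rule had a median length of 211 kb, those called higher 132 kb, those called lower 19.6 kb, and all tested genes 31.0 kb. When other B cells were matched to members within each dog on this share, an alternative chosen after seeing the data, 60 genes were called, 20 higher and 40 lower. The activation list then had 1 gene higher and none lower, and the plasma cell list 1 called gene.

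The calls thus depended on which B cells served as the comparison. The same 21 genes were called in the same direction against all other B cells, against those matched on UMIs, against those with none of the 4 genes, without plasma cell barcodes, and against those matched on long genes. These were 9 higher genes (F8, PHACTR1, TMTC2, MREG, ANKRD55, IL2RA, SYT1, MMP9 and ENSCAFG00000007481) and 12 lower genes. The lower genes were PRDM1 and ISG20, TOX (-1.38), PLXNC1, a semaphorin receptor (-0.89), NFIA (-0.74), GNG2 (-0.72) and SSBP2 (-0.69), together with EREG (-2.88), PTGS2 (-2.39), IL1B (-2.31), AQP9 (-1.31) and NAMPT (-0.89), which monocytes and neutrophils are known to express and which were not part of the monocyte and neutrophil list. EREG was at 0 in members of 12 of 13 dogs, IL1B of 11 and PTGS2 of 10, and their fitted values depend on the prior count. PTGS2 was at 0.10 with DESeq2. MMP9, a protease of neutrophils, rested on few cells, with 325 CPM in H5 from 91 UMIs in 2 of 53 members, 122 CPM in OS2, 54.7 CPM in OS7 and at most 10.8 CPM in the other dogs. TMTC2, a mannosyltransferase of the endoplasmic reticulum, was at 0 in members of 4 dogs (0, 27.4 and 249 CPM) and was not called by DESeq2. When the rule read 50% of the UMIs and the sums the others, with 4 dogs left at 25 cells, SYT1 was at 0.39 and PHACTR1 at 0.42 and neither was called.

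**Figure D5:**
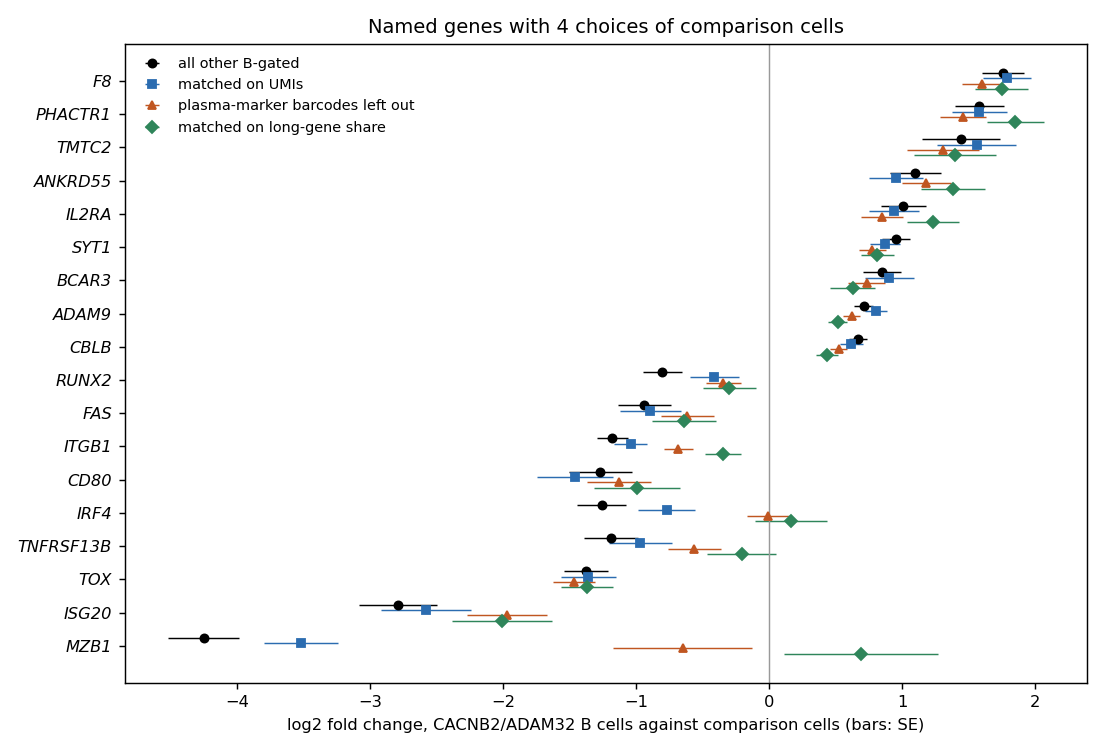
Log2 fold change of named genes between CACNB2/ADAM32 B cells and other B-gated cells under 4 choices of comparison cells, with bars of 1 SE. The comparison with cells holding none of the 4 genes, where F8 was at 2.46, is not shown. The choices are all other B-gated cells, cells matched on UMIs, plasma cell barcodes left out and cells matched on long genes. F8 lies near 1.76 and TOX near -1.38 under the 4 choices shown, while IRF4 and MZB1 move from below 0 to above it when the comparison cells are matched on long genes.

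The median levels of F8, SYT1 and IL2RA were ordered by the number of the 4 genes a cell held, while those of some other genes were not. Median CPM over the dogs with at least 5 such cells (17, 17, 16 and 9 dogs) for 0, 1, 2 and at least 3 genes was 14.4, 43.1, 77.0 and 219 for F8. It was 100, 174, 268 and 371 for SYT1 and 20.9, 37.1, 53.3 and 105 for IL2RA. TOX went from 57.0 to 49.7, 25.5 and 0, and PRDM1 from 89.6 to 22.1, 4.58 and 0. The medians of 0 are over 9 dogs with 155 cells in all, and over the pooled cells TOX was at 66.0, 58.6, 27.7 and 19.1 CPM and PRDM1 at 99.7, 29.0, 6.80 and 6.38. TMTC2 (7.36, 17.2, 33.0 and 0), ANKRD55 (22.7, 16.2, 32.2 and 79.2) and IGHM (259, 200, 218 and 317) showed no such order. The cells with 1 gene lay between those with 0 and those with 2 for F8, SYT1, IL2RA, TOX and PRDM1.

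The third comparison asked whether the cells themselves differed between dogs with osteosarcoma and healthy dogs. No gene passed both thresholds with edgeR among 10176 tested (0%), over 7 healthy dogs and 6 dogs with osteosarcoma. In simulated data this fit recovered 45.5% of genes with a 3-fold change, so a change of that size could go uncalled. OS3, OS4, OS5 and OS10, with 4, 9, 9 and 11 members, had too few for this fit and were left out. They were also the dogs with the lowest shares of these cells among barcodes kept, so the result does not cover the dogs lowest in the first comparison. By the study's numbering they included its oldest dogs, OS5, OS4 and OS10. At an unadjusted p under 0.05 there were 489 genes (4.81%), and DESeq2 called 1 gene, PGLYRP1, a peptidoglycan recognition protein of neutrophils. The median log2 fold change of all genes was -0.02. No gene of any list was called, and the medians were -0.25 for 23 activation genes, 0.33 for 11 immature genes and -0.12 for 22 receptor signaling genes. With at least 10 cells per dog, which added OS10, no gene was called by edgeR either. A difference in members of OS3, OS4 and OS5 was not tested.

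GRK5, a kinase of G protein-coupled receptors, had the fifth smallest p and was not called. It was at 27.0, 98.1 and 138 CPM (lowest, median and highest) in members of healthy dogs and 25.1, 30.9 and 41.7 CPM in dogs with osteosarcoma. The groups overlapped through H7, the lowest healthy dog, and the difference was -1.46 ± 0.29 (SE, log2, edgeR adjusted p = 0.0555). In other B cells GRK5 was at 55.9, 88.2 and 131 CPM in healthy dogs and 37.2, 55.4 and 70.7 CPM in dogs with osteosarcoma. F8 was at 53.1, 105 and 259 CPM in members of healthy dogs and 12.7, 97.7 and 180 CPM in dogs with osteosarcoma, and IL2RA at 44.4, 65.6 and 100 CPM and 18.8, 77.7 and 112.3 CPM, with wide overlap for both.

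CAMP, which encodes the neutrophil peptide cathelicidin, had the smallest adjusted p (log2 difference 8.33, edgeR adjusted p = 0.0434), shared with 2 genes that have no symbol. It was at 1094 CPM in OS7, from 340 UMIs in 1 of 52 members, and at 701 CPM in OS2, from 3 of 33 members. All other dogs had at most 1.66 CPM. S100A12, another neutrophil gene, was found in 10 of 33 members of OS2 (30.3%). It was found in 22 of 145 other B cells (15.2%) and in 28.4% of all barcodes of that dog. The groups did not overlap for 4 of the 10176 genes (0.0393%).

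The difference between members and other B cells was compared between healthy dogs and dogs with osteosarcoma by an interaction term, again without OS3, OS4, OS5 and OS10. It was called for 4 of 12907 genes (0.031%), 1 with a positive value (0.00775%) and 3 with a negative one (0.0232%), with 664 at an unadjusted p under 0.05 (5.14%). NRG1, a growth factor of the EGF family, is also in the study's marker lists for monocytes. The part of monocyte RNA in its values was not tested. NRG1 was at 6.65, 32.4 and 97.1 CPM (lowest, median and highest) in members and 3.08, 17.9 and 42.1 CPM in other B cells of healthy dogs. In dogs with osteosarcoma it was at 0, 7.97 and 37.9 CPM in members and 14.3, 56.2 and 84.5 CPM in other B cells. NRG1 was thus higher in members in 6 of 7 healthy dogs and lower in 5 of 6 dogs with osteosarcoma (interaction -2.85 on the log2 scale, edgeR adjusted p = 0.00448). NAMPT, an enzyme of NAD synthesis that myeloid cells express strongly, was lower in members in 6 of 6 dogs with osteosarcoma and, in CPM, in 3 of 7 healthy dogs, or 4 of 7 after TMM scaling (-1.73, edgeR adjusted p = 0.00891). The calls of NRG1, NAMPT and IL1B were lost with doublets removed, which left 1 call, ENSCAFG00000030286. The calls numbered 1 without OS1, 15 without OS9, and 0 with DESeq2 and with the filter of edgeR.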

How the data were processed

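Single-cell RNA-seq of blood mononuclear cells from 7 healthy dogs and 10 dogs with osteosarcoma was used. The deposited values were whole-number counts of UMIs per gene and barcode, 1 matrix per dog, which the authors made with Cell Ranger 7.0.0 on CanFam3.1. Intronic reads were included in one of the study's runs and not in another, and the run behind these files is not given in the sources used here. The matrices listed 20257 features (15825 with a symbol) and 93013 barcodes, and limits on barcodes left 84345. The members and gene lists were chosen with earlier results of these data known. Gene lengths came from the RefSeq assembly UU_Cfam_GSD_1.0 and were matched by symbol or gene identifier to 86.3% of tested genes.

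Cells were not clustered or annotated, and no doublets were removed in the main analysis. Removal of the barcodes with the highest Scrublet scores, at 0.8% per 1000 barcodes, was an alternative. The UMI counts were summed per dog and class where a dog had 25 cells or more. Genes reaching 10 counts over these sums were tested with edgeR 4.0.16 (quasi-likelihood, TMM, Benjamini-Hochberg), with DESeq2 1.42.0 as an alternative. The SE given with edgeR log2 fold changes was derived from the test. It is the absolute log2 fold change divided by the square root of the F statistic. Shares were compared over dogs with the exact Wilcoxon rank-sum test in scipy 1.17.1. Fits were tested on simulated data with a 3-fold change in 200 genes. They recovered 45.5% of these genes between groups of dogs, 61% between classes and 19% for the interaction. The simulation gave every gene the same spread and held no other differences between dogs, so real data may be harder. Python 3.11.15 and R 4.3.3 were used. Genes were named if they belonged to the rule or the study's list for these cells, if they were among the 4 largest called changes of a list or the 2 smallest p-values of a list without calls, or if they were among the 12 largest called changes in each direction at a mean of at least 50 CPM or, without calls, the 5 smallest p-values; the others are named as chosen after their values were seen, by shared calls, or as background to a list. Counting intervals were not needed, as the dog was the replicate.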

Additional observations from a re-analysis of the deposited data

Results flagged for a closer look

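Among 54 groups of 6, 7 or 10 dogs, 7 had 1 dog whose gap to the nearest other dog was large for the range of the group, where chance gives about 1 in 20 such groups. In healthy dogs, H2 had the highest median share of UMIs from genes of at least 100 kb in CACNB2/ADAM32 B cells, at 37.4% with the nearest dog at 27.0%. H5 was highest for PHACTR1, at 371.8 CPM against 131.3 CPM, and for MMP9, at 325.3 CPM against 10.8 CPM. In dogs with osteosarcoma, OS3, with 4 members, had a share of long-gene UMIs of 35.6% against 26.9%. OS5, with 9 members, had the lowest percent of members with IGHM, at 11.1% against 47.9%. OS1 was highest for ANKRD55, at 202.1 CPM against 47.1 CPM, and OS6 for PLXNC1, at 113.8 CPM against 60.1 CPM.

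For 4 genes the difference between members and other B cells differed between healthy dogs and dogs with osteosarcoma in a test of the interaction. The log2 values, as osteosarcoma minus healthy, were 2.95 for ENSCAFG00000030286 (edgeR adjusted p = 0.000613), -1.73 for NAMPT (edgeR adjusted p = 0.00891), -9.03 for IL1B (edgeR adjusted p = 0.000457) and -2.85 for NRG1 (edgeR adjusted p = 0.00448). ENSCAFG00000030286 was at 16433 CPM in members and 17995 CPM in other B cells of OS1. IL1B was at 0 UMIs in members of all 6 dogs with osteosarcoma and of 5 of 7 healthy dogs, and the others were H1 with 70 UMIs in 9 cells and H6 with 2 UMIs in 1 cell. Its fitted value depends on the prior count and is no bound.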

How the results depend on the processing

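The lower share among barcodes kept was lost, with the same direction, without RASGRF2 in the rule (exact p = 0.0553) and when MS4A1 (exact p = 0.0702) or both MS4A1 and PAX5 (exact p = 0.0702) were required. Leaving out each dog gave exact p from 0.00749 to 0.0420, and none of the p-values of these alternatives was adjusted for the pair of shares. Between members and other B cells 339 genes were called, which became 557 with doublets removed, 144 with other B cells matched on UMIs, 684 against cells with none of the 4 genes, 69 with the rule on 50% of the UMIs, 192 without the dog block, and, as alternatives chosen after seeing the data, 80 without plasma cell barcodes and 60 matched on long genes, with 277 to 403 when each dog was left out. The median of all genes moved from -0.09 to 0.05 with DESeq2. Within members 0 genes were called between groups by edgeR, against 1 with DESeq2, 14 without a filter on low counts, and 0 to 4 when each dog was left out (3 without OS1, 4 without OS6, 1 without OS8). The 4 interaction genes became 0 with DESeq2, 0 with the filter of edgeR, 49 without a filter, 1 with doublets removed, 10 without plasma cell barcodes, 21 matched on long genes, and 1 to 15 when each dog was left out (8 without H1, 13 without H2, 2 without H3, OS2 or OS7, 1 without OS1, 8 without OS8, 15 without OS9). The causes were not tested.

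Log2 fold changes that turned sign against the main comparison were IGF1 0.53, PTGS2 0.10 and KLRD1 0.41 (at 0 UMIs in members, so its sign has no meaning) with DESeq2, ENSCAFG00000030286 0.68, IGKC 0.97 and IGHM 0.0173 matched on UMIs, TNFRSF13C 0.049 against cells with none of the 4 genes, and IGHM 0.20 with the rule on 50% of the UMIs. Without plasma cell barcodes they were IGKC 0.42, IGHM 0.33 and IGLV2-33 0.077. Matched on long genes they were IRF4 0.16, MZB1 0.69, COBLL1 0.30, FKBP11 0.18, ENSCAFG00000030286 0.84, SEC61B 0.0585, IGKC 1.03, TNFRSF13C 0.0323, IGHM 0.53 and IGLV2-33 1.16.

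Healthy and osteosarcoma dogs share replicate numbers that name separate animals. Members of same-numbered dogs did not deviate together in every pair (correlations 0.094, 0.000648, 0.0909 and 0.0368 for numbers 1, 2, 6 and 7), so the numbers were not taken as pairs. With the replicate block the shares gave an exact sign-flip p = 0.0469 of barcodes kept and 0.0625 of B-gated barcodes, with 0.0156 the smallest possible. That test left out OS8, OS9 and OS10. In the gene fit 20 genes were called between groups (18 higher, 2 lower). Only numbers 1, 2, 6 and 7 held dogs of both groups there, so the calls rest on these unrelated animals. The neutrophil genes CAMP, PGLYRP1, S100A12 and MMP9 were among the calls. No replicate block could be fitted beside the dog block, and a fit of cells with at least 3 of the 4 genes was not run, as too few dogs had enough cells. Depth limits what can be said of single members, and 4 of 10 dogs with osteosarcoma had too few members for the fits.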
